A study of Mus musculus with 27 samples.

Results

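The 8 genes Alas2, Tspo2, Slc4a1, Epb42, Sptb, Klf1, Gata1 and Ahsp serve heme synthesis, the red cell membrane, hemoglobin assembly or the control of these programs. They were read by gene symbol from the gene count table of a series on fetal brain in 3 mouse strains, where 7 of the 8 had a row among 55416 rows. Ahsp, the chaperone of free alpha-globin, had no row and was not analysed here. The other 7 each passed the filter on low counts over all 27 libraries, and between 4 and 7 passed it in the single comparisons.

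Whole brains were dissected from snap-frozen female fetuses on d12, d15 and d17 of gestation, counted from the vaginal plug as day 1, and poly(A) RNA was sequenced. The groups were AKR/J, C57BL/6J and B6.Cg-Cav1tm1Mls/J (Cav1-null), the last carrying a disrupted gene for caveolin 1 in every cell on a C57BL/6J-related background, each with no treatment named and with 3 libraries a day, 27 in all. The mothers were about 8 weeks old when timed pregnancies were set up. Nothing in the labels says whether fetuses of a group shared a litter, so p-values measure the spread between these libraries. The early phase is d12 to d15 and the late phase is d15 to d17.

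Red cells of the early fetus are large primitive cells that leave the yolk sac carrying their nucleus, and they are later replaced in the blood by definitive cells from the fetal liver. During maturation an erythroid cell makes heme from glycine and succinyl-CoA, loads it into globin chains, and lays a spectrin skeleton under its membrane that is tied to the anion exchanger band 3. The transcription factors GATA1 and KLF1 drive many of these genes, GATA1 through GATA motifs and KLF1 through CACCC boxes. The brain makes no red cells, and whole brain holds the blood of its vessels.

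The stretch around the transcription start of 4 members is shown because GATA1 and KLF1, both members, act through short motifs in such stretches and because these 4 did not move alike. Each runs 5′ to 3′ on the gene's strand, over 300 bases that end shortly past the start (RefSeq, mouse build GRCm38.p6). Capitals mark matches on either strand to AGATAA, which is 1 spelling of the GATA motif, or to CCNCNCCC, which stands for a box of the CACCC kind. Other spellings of either motif were not searched for and are not marked.
Alas2, chrX:150547167-150547466, plus strand: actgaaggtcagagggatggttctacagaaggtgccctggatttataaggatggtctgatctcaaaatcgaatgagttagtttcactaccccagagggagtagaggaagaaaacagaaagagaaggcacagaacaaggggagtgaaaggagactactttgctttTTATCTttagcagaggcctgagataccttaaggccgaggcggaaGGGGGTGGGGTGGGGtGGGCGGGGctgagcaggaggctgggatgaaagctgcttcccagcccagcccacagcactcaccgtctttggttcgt
Epb42, chr2:121036828-121037127, minus strand: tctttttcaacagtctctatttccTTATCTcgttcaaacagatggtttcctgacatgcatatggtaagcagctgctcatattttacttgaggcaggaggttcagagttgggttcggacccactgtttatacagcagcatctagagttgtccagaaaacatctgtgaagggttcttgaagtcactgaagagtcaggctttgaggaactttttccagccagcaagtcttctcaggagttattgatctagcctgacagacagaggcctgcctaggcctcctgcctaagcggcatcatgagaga
Sptb, chr12:76710498-76710797, minus strand: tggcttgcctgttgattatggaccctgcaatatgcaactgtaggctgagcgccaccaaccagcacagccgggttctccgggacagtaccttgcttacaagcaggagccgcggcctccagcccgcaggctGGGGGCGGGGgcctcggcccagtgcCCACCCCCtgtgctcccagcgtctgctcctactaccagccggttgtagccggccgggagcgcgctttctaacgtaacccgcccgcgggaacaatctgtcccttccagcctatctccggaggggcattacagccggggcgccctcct
Gata1, chrX:7967861-7968160, minus strand: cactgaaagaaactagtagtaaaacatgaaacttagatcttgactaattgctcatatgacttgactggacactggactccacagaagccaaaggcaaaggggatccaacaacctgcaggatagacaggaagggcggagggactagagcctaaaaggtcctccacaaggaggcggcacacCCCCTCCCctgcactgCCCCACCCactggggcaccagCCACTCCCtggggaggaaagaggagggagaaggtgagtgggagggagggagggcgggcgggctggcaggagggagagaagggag
Of the 8 genes, 6 were matched in the RefSeq promoter table, and Slc4a1 and Ahsp were not. Alas2 held 1 AGATAA and 4 CCNCNCCC matches, some of them overlapping, Epb42 held 1 AGATAA alone, Sptb and Gata1 each held 3 CCNCNCCC and no AGATAA. In Tspo2 there were 2 CCNCNCCC matches, and neither of these 2 strings stood in the window of Klf1. That does not mean that a window lacks a GATA motif in another spelling. AGATAA was found in 11.2% and CCNCNCCC in 49.5% of the 32851 promoters of this length in the table. A match is a run of letters and was not tested as a binding site.

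The libraries held 26363697 to 39759702 reads in genes. Cav1 stood at 0 to 0.509 CPM (reads scaled to a common library size) in Cav1-null libraries and at 9.25 to 39.9 in those of the other strains. The brain list of 8 genes (such as Dcx, Tubb3 and Map2) summed to 2349 to 2606 CPM in AKR/J d12 and to 3828 to 7475 elsewhere. The 3 AKR/J d12 libraries stood apart. Their 7 globin genes took 3.53% to 13.6% of all reads, against 0.0604% to 1.91% in the other 24 libraries. They also read genes of placenta and decidua (34.1 to 755 CPM over 7 genes, Prl8a2 highest), of yolk sac endoderm (26.7 to 1253 CPM over 6 genes, Afp highest) and of hepatocytes (0.407 to 45.5 CPM over 5 genes, Fgb highest). In the other 24 libraries these lists summed to at most 74.2, 15.3 and 8.82 CPM. C57BL/6J d12 replicate 3 stood apart within its group, with globin genes at 0.470% of reads against 0.191% and 0.175% in its partners, and it held the 74.2 CPM of placental genes. In whole tissue, fewer cells of a type and less RNA per cell cannot be told apart.

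Values below are CPM after scaling by TMM, given for replicates 1, 2 and 3 in that order. Levels are compared between genes only per kilobase of exon. On that scale Alas2 was the most abundant member in AKR/J d12, with a mean of 89.1 CPM per kb, followed by Slc4a1 at 43.7 and Klf1 at 6.86. Sptb stood at 2.96 CPM per kb in that group. In C57BL/6J d17 Alas2 was also first, at 16.7 CPM per kb, but Sptb came second at 4.30 and Slc4a1 stood at 0.688.

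**Figure D1:**
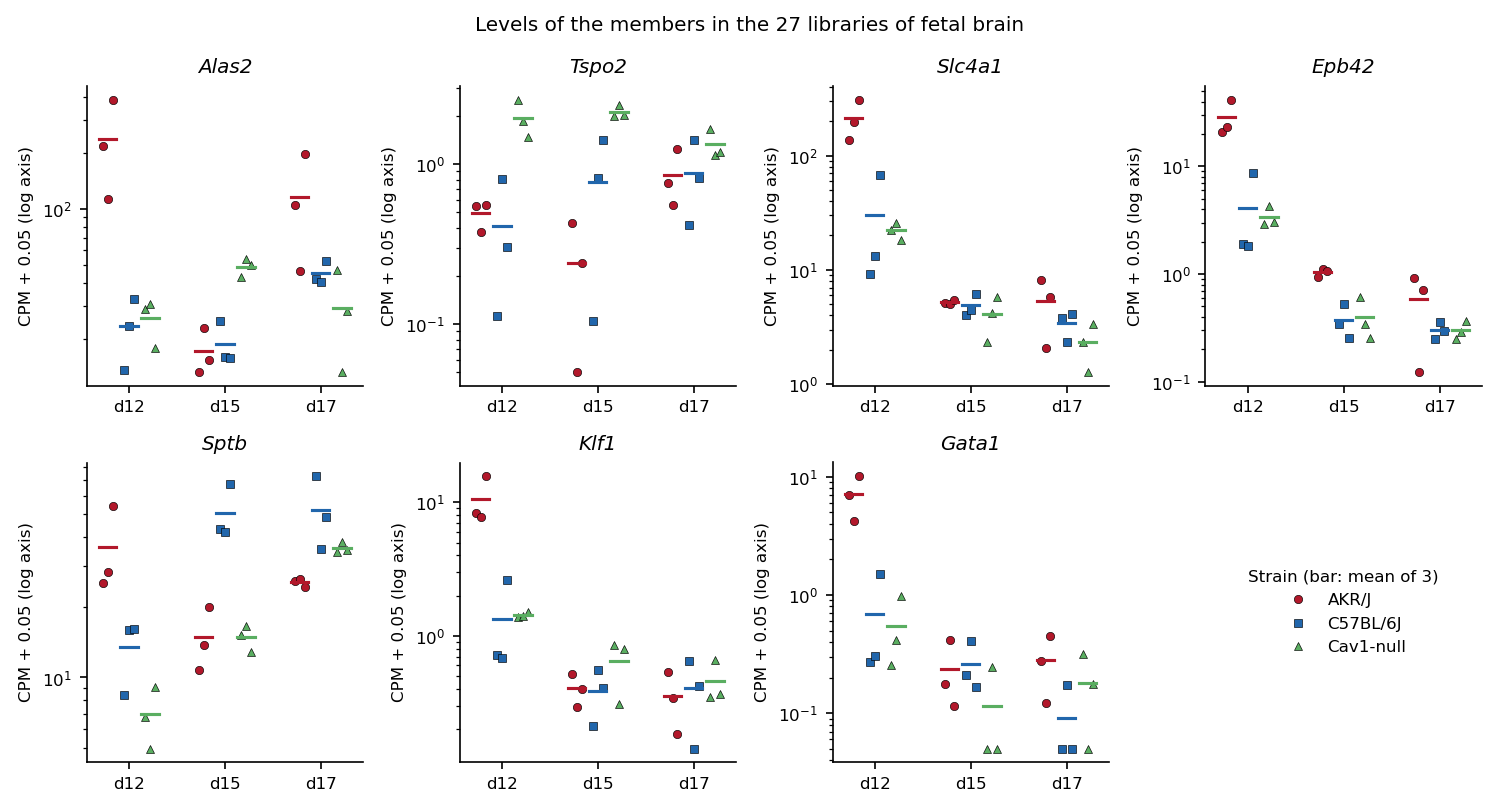
Level of each of the 7 measured members in the 27 libraries, by gestational day on the x axis and strain by colour and shape, as CPM + 0.05 on a log y axis; short bars are means of 3 libraries. Slc4a1, Epb42, Klf1 and Gata1 were highest in the 3 AKR/J d12 libraries, Alas2 was high again in AKR/J d17, Sptb rose in C57BL/6J and Cav1-null, and Tspo2 was highest in Cav1-null.

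Alas2 (ENSMUSG00000025270, chrX:149330371-149353634, plus strand, GRCm39) encodes the erythroid form of 5-aminolevulinate synthase, the first enzyme of heme synthesis. In AKR/J it stood at 218, 112 and 388 CPM on d12, at 13.1, 22.7 and 15.2 on d15 and at 105, 46.2 and 198 on d17. The level was therefore high, low and high again, and the d15 libraries overlapped neither of the other days. In C57BL/6J it stood at 13.5, 23.3 and 32.7 on d12, 24.7, 15.9 and 15.6 on d15 and 41.9, 40.2 and 52.5 on d17, so that d12 and d15 overlapped and d17 lay above both. In Cav1-null it was highest on d15, at 43.0, 53.6 and 49.8, above d12 at 29.0, 30.6 and 17.8, while d17 spread over 46.8, 13.2 and 28.0 and overlapped both. Ordered by mean, the groups ran from AKR/J d12 (239 ± 139, SD, n = 3) and AKR/J d17 (116 ± 76.5) through Cav1-null d15 (48.8 ± 5.35) and C57BL/6J d17 (44.9 ± 6.65) down to AKR/J d15 (17.0 ± 5.02), and every group overlapped the next. The exons share 311 bases with Apex2 on the other strand, which held 349 to 768 reads a library. Alas2 itself had as few as 388 reads, in Cav1-null d17 replicate 2, and whether the count used strand is not given in the sources used here.

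Tspo2 (ENSMUSG00000023995, chr17:48754935-48758897, minus strand) encodes an erythroid relative of the mitochondrial cholesterol-binding protein TSPO. It was read little, with 0 to 72 reads a library. In Cav1-null it stood at 2.48, 1.81 and 1.43 CPM on d12, 1.95, 2.29 and 1.97 on d15 and 1.61, 1.09 and 1.15 on d17. In AKR/J the values were 0.495, 0.329 and 0.508 on d12, 0.377, 0 and 0.192 on d15 and 0.714, 0.507 and 1.20 on d17. On d12 and d15 every Cav1-null library lay above every AKR/J and C57BL/6J library, and on d17 the strains overlapped. In C57BL/6J Tspo2 ranged from 0.0540 to 1.36 CPM over the 9 libraries and spread as much within a day as between days. The AKR/J d12 libraries, with up to 13.6% globin reads, held no more than 0.508 CPM of Tspo2. It shares 435 bases with the noncoding Gm65756 on the other strand, which has no row in the table.

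Slc4a1 (ENSMUSG00000006574, chr11:102239650-102257029, minus strand) encodes band 3, the chloride-bicarbonate exchanger that is the main integral protein of the red cell membrane. On d12 it stood at 137, 196 and 308 CPM in AKR/J, 9.22, 13.2 and 68.0 in C57BL/6J and 22.5, 25.7 and 18.3 in Cav1-null. AKR/J lay above both, and C57BL/6J replicate 3, the library with more globin, lay above all 3 of Cav1-null while its partners lay below them. On d15 it stood at 5.09, 4.95 and 5.44 in AKR/J, at 4.0, 4.43 and 6.11 in C57BL/6J and at 2.30, 4.17 and 5.76 in Cav1-null. The d17 values were 8.17, 2.03 and 5.68 in AKR/J, 3.78, 2.28 and 4.03 in C57BL/6J and 2.31, 1.22 and 3.31 in Cav1-null. Every d12 library of every strain lay above every d15 and d17 library, and from d15 on the strains overlapped.

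Epb42 (ENSMUSG00000023216, chr2:120848372-120867553, minus strand) encodes protein 4.2, which binds band 3 to the ankyrin of the skeleton. Its pattern followed that of Slc4a1. On d12 it stood at 20.8, 23.4 and 41.7 CPM in AKR/J, 1.86, 1.77 and 8.64 in C57BL/6J and 2.86, 4.23 and 3.02 in Cav1-null, and again only replicate 3 of C57BL/6J was high in its group. On d15 AKR/J held 0.880, 1.07 and 1.02, above 0.297, 0.472 and 0.206 in C57BL/6J and 0.558, 0.291 and 0.203 in Cav1-null. From d15 on the gene had 2 to 35 reads a library. On d12 there were 11.9 to 20.2 reads of Epb42 for each 100 of Slc4a1 over the 9 libraries, while Slc4a1 itself ran from 292 to 6060 reads.

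Sptb (ENSMUSG00000021061, chr12:76627247-76757321, minus strand) encodes beta-spectrin of the red cell skeleton, a gene that neurons also use. In C57BL/6J it stood at 8.34, 15.9 and 16.0 CPM on d12, 43.2, 41.7 and 67.5 on d15 and 72.8, 35.5 and 48.5 on d17, with both later days above d12. In Cav1-null it stood at 6.72, 4.90 and 9.05 on d12, 15.1, 16.5 and 12.9 on d15 and 34.5, 38.0 and 35.2 on d17, and no 2 days overlapped. In AKR/J it stood at 25.5, 28.3 and 54.3 on d12, 10.7, 13.8 and 20.1 on d15 and 25.8, 26.4 and 24.4 on d17. AKR/J thus had its lowest mean on d15, and the other strains had theirs on d12. Of the reads of all members, not scaled by exon length, Sptb made up 12.4% to 28.5% in C57BL/6J d12. It made up 59.5% to 74.0% in C57BL/6J d15 and 44.4% to 60.8% in C57BL/6J d17. In Cav1-null the share was 7.11% to 17.4% on d12, 18.0% to 23.7% on d15 and 40.1% to 70.0% on d17. In AKR/J the share was 6.11% to 7.59% on d12, 32.0% to 47.4% on d15 and 10.6% to 34.9% on d17.

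Klf1 (ENSMUSG00000054191, chr8:85628557-85631934, plus strand) encodes the erythroid Krüppel-like factor that switches on adult beta-globin and many membrane genes. On d12 it stood at 8.33, 7.77 and 15.7 CPM in AKR/J, 0.663, 0.631 and 2.57 in C57BL/6J and 1.34, 1.35 and 1.46 in Cav1-null. AKR/J lay apart and the other strains overlapped. On d15 and d17 the 18 libraries ran from 0.0926 to 0.802 CPM, or 3 to 23 reads, and all strains overlapped. Klf1 shares 814 bases of exon with Gcdh on the other strand, a gene with 532 to 1043 reads a library, and how much of these few reads came from that strand was not tested.

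Gata1 (ENSMUSG00000031162, chrX:7825499-7844310, minus strand) encodes the master regulator of red cells and megakaryocytes. On d12 it stood at 6.97, 4.18 and 10.1 CPM in AKR/J, or 127 to 198 reads. In C57BL/6J it stood at 0.221, 0.252 and 1.46 and in Cav1-null at 0.207, 0.367 and 0.927, or 6 to 46 reads over both strains. From d15 on it held 0 to 12 reads, with 0 in 5 of 18 libraries, and only comparisons with d12 libraries kept it. The 9 megakaryocyte and platelet genes, which GATA1 also serves, summed to 30.1 to 142 CPM in AKR/J d12 with Pf4 highest, and to 8.54 to 25.5 in the other groups.

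The first question was how the genes changed between days within a strain. In the early phase in AKR/J, 6 of 7 members tested fell, against 14% of all genes tested that fell (edgeR's quasi-likelihood test, Benjamini-Hochberg adjusted p under 0.05, here and below). Slc4a1 fell by 5.42 on the log2 scale (SE 0.33, adjusted p = 0.000347), Gata1 by 5.25 (SE 0.65, adjusted p = 0.00181), Klf1 by 4.92 (SE 0.45) and Epb42 by 4.89 (SE 0.34). Alas2 fell by 3.86 (SE 0.46, adjusted p = 0.00164), and Sptb fell least, by 1.32 (SE 0.34, adjusted p = 0.0221). For Tspo2 the log2 fold change was -1.24 (SE 0.96, adjusted p = 0.367). Klf1 and Gata1 met the filter on low counts through the d12 libraries, where they were high, and not through those of d15, so their direction was set in part by the filter. The 4 members that met it on both days, Alas2, Slc4a1, Epb42 and Sptb, all fell. Between the same libraries 3 of 3 embryonic and 3 of 4 adult globin genes, 4 of 4 placental, 4 of 6 yolk sac and 4 of 6 leukocyte genes tested fell. All 4 of these placental genes, 3 of the 4 yolk sac genes, 3 of the 4 leukocyte genes and 1 of the 3 adult globins also met the filter through d12 alone. The part of these genes in the result was not tested. The call of Sptb was lost without AKR/J d12 replicate 3, d15 replicate 1 or d15 replicate 2, and with library sizes left unscaled. The other 5 calls were kept in each of these fits.

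In the early phase in C57BL/6J, 2 of 6 members tested passed, against a background of 14.9% of genes. Epb42 fell by 3.71 (SE 0.77, adjusted p = 0.0294) and Sptb rose, with a log2 fold change of 1.87 (SE 0.30, adjusted p = 0.0191). Slc4a1 did not pass, at -2.71 (SE 0.76, adjusted p = 0.0534), nor did Klf1, at -1.99 (SE 0.71). Both were spread widely on d12, where replicate 3 was high. Slc4a1 passed with unscaled library sizes, without the filter, with DESeq2 and in the model of all 27 libraries, and Klf1 in the last 2 of these. Epb42 met the filter through d12 alone. Without d12 replicate 3, 3 members passed, Slc4a1 among them. The count was 1 without d12 replicate 1 (Sptb), 3 without d12 replicate 2 and 0 without any 1 of the d15 libraries. It was also 0 with replicate number added to the model (the replicate block).

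In the early phase in Cav1-null, 4 of 6 members tested passed, 2 in each direction, against a background of 23.4%. Slc4a1 fell by 2.43 (SE 0.30, adjusted p = 0.00102) and Epb42 by 3.25 (SE 0.40, adjusted p = 0.00107). Alas2 rose, with a log2 fold change of 0.93 (SE 0.18, adjusted p = 0.00822), and so did Sptb, at 1.10 (SE 0.23). Leaving out d15 replicate 2 removed the call of Sptb and added Gata1, and the 4 calls were kept without any 1 of the other 5 libraries. In the model of all 27 libraries Alas2 did not pass. Epb42 met the filter on low counts through d12 alone, and of the 4 members that met it on both days 3 passed. Alas2 and Slc4a1 thus moved in opposite directions in this strain, while globin reads went from 0.451%-0.548% to 0.305%-0.378% of all reads.

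**Figure D2:**
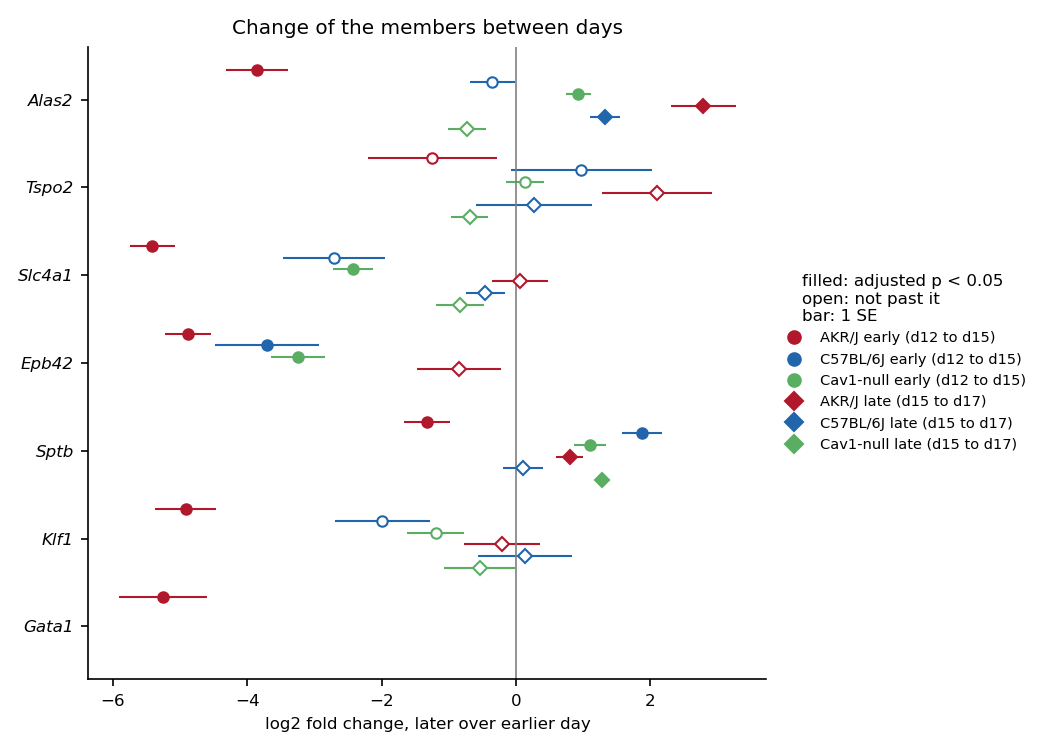
Log2 fold change of each member between days (x axis, later over earlier day) with bars of 1 SE, by strain (colour) and phase (circles early, diamonds late); filled symbols passed an adjusted p of 0.05, and members removed by the filter have no symbol. In the early phase Slc4a1 and Epb42 lay left of 0 in all strains, while Sptb lay at -1.32 in AKR/J and right of 0 in the others.

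In the late phase fewer members moved. In AKR/J, 2 of 6 members tested rose, against 11.6% of genes that rose and 22.1% called in either direction. These members were Alas2 at 2.79 (SE 0.48, adjusted p = 0.00552) and Sptb at 0.80 (SE 0.20, adjusted p = 0.0243). Sptb lost its call without any 1 of the d17 libraries and Alas2 kept it. Slc4a1 stood at 0.05 (SE 0.41) in the same fit. In C57BL/6J only Alas2 of 5 tested rose, at 1.32 (SE 0.22, adjusted p = 0.0136), against 7.46% of genes that rose. Of all genes in that fit 13.0% were called in either direction. The call of Alas2 was lost without d15 replicate 2, d15 replicate 3 or d17 replicate 3, and in the model of all 27 libraries. In Cav1-null only Sptb of 5 tested rose, at 1.28 (SE 0.11, adjusted p = 2.97e-06), against 14.5% of genes that rose. Of all genes in this strain 27.3% were called in either direction, and the share of members called lay below that. There Alas2 stood at -0.73 (SE 0.29, adjusted p = 0.0755), and fell past the threshold without d17 replicate 1, as Slc4a1 did without d15 replicate 1. Each of these made the count 2. Over the same days the 4 adult globin genes rose in 3 of 4 tested in AKR/J and 4 of 4 in C57BL/6J, and fell in 2 of 4 in Cav1-null, against 12.8% of all genes that fell there.

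The ratio of Alas2 to Slc4a1 reads within a library is the same under every scaling of that library. It was 0.481 to 1.77 in the 9 libraries of d12. By d17 it was 8.45 to 34.9, and d12 and d17 did not overlap in any strain. On d15 AKR/J stood at 2.57 to 4.57, inside the range of C57BL/6J at 2.55 to 6.18. Cav1-null stood above both, at 8.65 to 18.7, within its own range of d17 (8.45 to 20.3). The embryonic share of globin CPM fell in value over the same days, on d15 most in Cav1-null. From d12 to d15 it went from 89.2%-93.5% to 32.3%-53.6% in AKR/J, from 54.0%-86.4% to 8.87%-12.7% in C57BL/6J and from 67.6%-73.0% to 1.34%-1.59% in Cav1-null. On d17 it was at most 0.457%. Lowest among the d12 ratios were C57BL/6J replicate 3 at 0.481 and AKR/J replicate 2 at 0.573. These ratios were computed after the values were seen, and an exact two-sided permutation test of 3 against 3 libraries cannot go below 0.1, so they are given as a description. On d17 Slc4a1 held only 36 to 252 reads a library. The part of reads from Apex2, which overlaps Alas2 on the other strand, was not tested.

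**Figure D3:**
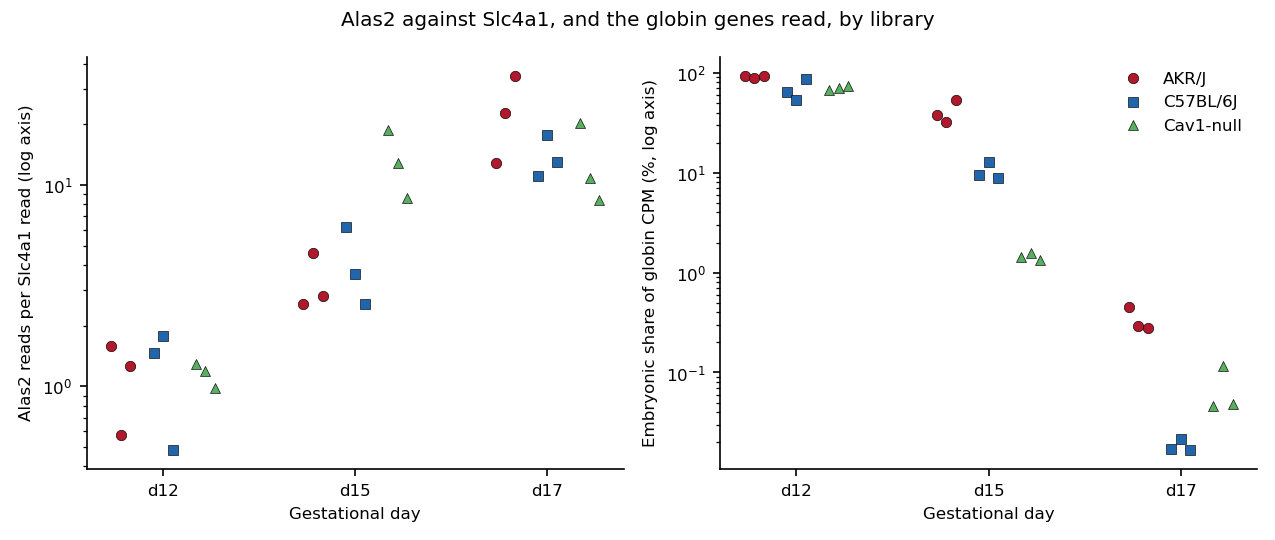
Alas2 reads per Slc4a1 read (left, log axis) and the share of embryonic globins in all globin CPM in percent (right, log axis), 1 point a library, by gestational day and strain. The ratio ran from 0.481 to 1.77 on d12 and from 8.45 to 34.9 on d17; on d15 the Cav1-null libraries lay above the others on the left and below them on the right.

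The second question was how the strains differed on a day. On d12, 6 of 7 members were higher in AKR/J than in C57BL/6J, against 14.5% of all genes tested that were higher. Gata1 differed by 3.58 on the log2 scale (SE 0.75, adjusted p = 0.0142), Alas2 by 3.51 (SE 0.49), Klf1 by 3.16 (SE 0.62), Slc4a1 by 2.96 (SE 0.73), Epb42 by 2.94 (SE 0.64) and Sptb by 1.57 (SE 0.36, adjusted p = 0.0176). Gata1 met the filter on low counts through AKR/J, where it was high, and not through C57BL/6J, and the other 5 that were higher met it in both strains. Embryonic globins differed by more: their median was 5.90 over 3 genes, all higher. The count rested on single libraries, being 0 without C57BL/6J replicate 2, 2 without AKR/J replicate 3 (Alas2 and Klf1) and 3 without C57BL/6J replicate 1 (Alas2, Gata1 and Klf1), and it stayed at 6 without C57BL/6J replicate 3. Sptb also lost its call with unscaled library sizes. The unadjusted p of 6 members was under 0.05 in all of these.

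Between AKR/J and Cav1-null on d12 all 7 members tested passed, 6 higher and Tspo2 lower in AKR/J, against a background of 19.6%. Gata1 differed by 3.83 (SE 0.60), Slc4a1 by 3.32 (SE 0.32, adjusted p = 0.000629), Sptb by 2.43 (SE 0.36) and Tspo2 by -2.05 (SE 0.46, adjusted p = 0.0179). Tspo2 lost its call without Cav1-null replicate 1 or 2, and the other 6 kept theirs without any 1 library. Here too Gata1 met the filter through AKR/J alone. These 2 comparisons share the AKR/J libraries, with their placental and yolk sac genes. Of 7 leukocyte genes tested 4 were higher in AKR/J than in C57BL/6J, all 4 having met the filter through AKR/J alone, and 3 were higher and 1 lower than in Cav1-null. Their part was not tested.

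Between Cav1-null and C57BL/6J on d12 none of the 7 passed, where 0% of all 19475 genes tested did. An unadjusted p under 0.05 was found for 2 of the 7, against 22.1% of all genes. With DESeq2 1 passed (Sptb). Slc4a1 stood at -0.43 (SE 0.66, adjusted p = 0.739) with all libraries, and without C57BL/6J replicate 3 it stood at 1.02 and passed (adjusted p = 0.0422). The direction of this difference thus changed without 1 library, and it also changed under the replicate block with all libraries kept. Tspo2 stood at 2.45 (SE 0.68, adjusted p = 0.114).

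**Figure D4:**
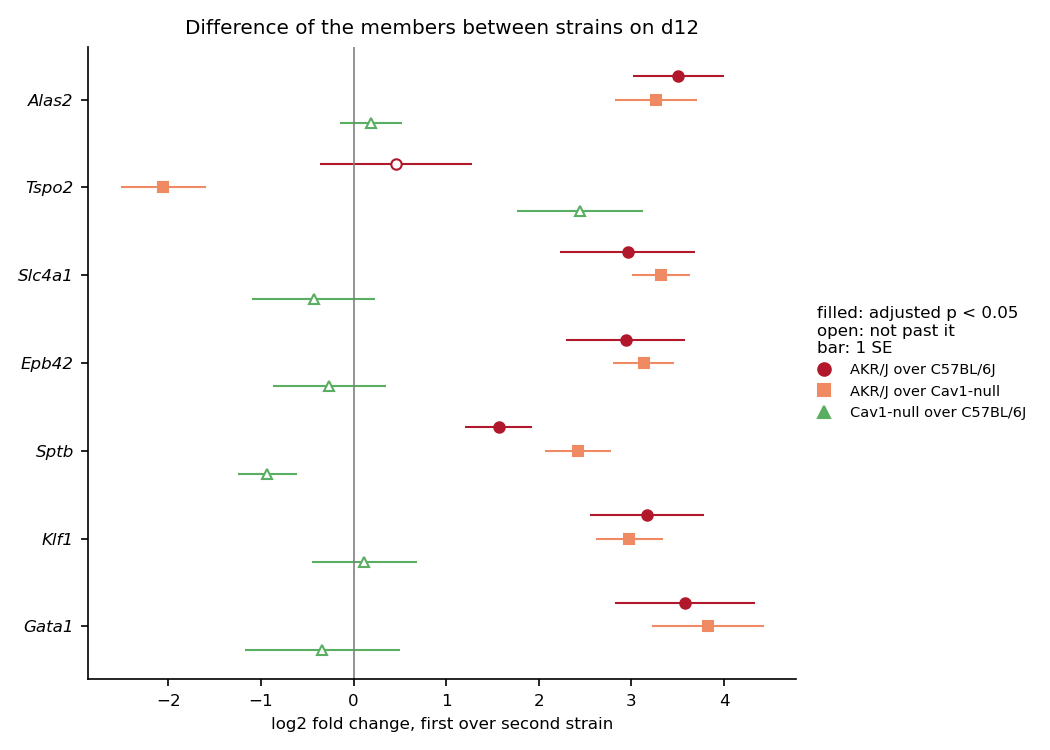
Log2 fold change of each member between strains on d12 (x axis, first over second strain) with bars of 1 SE; filled symbols passed an adjusted p of 0.05. AKR/J lay 1.57 to 3.83 above the other strains for all members but Tspo2, and no member passed between Cav1-null and C57BL/6J.

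On d15, AKR/J and C57BL/6J differed in 2 of 6 members tested, against a background of 41.1%: Epb42 was higher in AKR/J, at 1.67 (SE 0.38, adjusted p = 0.0107), and Sptb was lower, at -1.71 (SE 0.26). Cav1-null and C57BL/6J also differed in 2 of 6, against 58.6%: Alas2 was higher in Cav1-null, at 1.42 (SE 0.17, adjusted p = 4.54e-05), and Sptb was lower, at -1.73 (SE 0.18, adjusted p = 1.42e-05). Leaving out C57BL/6J replicate 1 or 3 added Tspo2 and made this count 3. Both shares of members called lay below the share of all genes. AKR/J and Cav1-null differed in 3 of 6, against 19.3%: Alas2, at -1.53 (SE 0.20), and Tspo2, at -3.45 (SE 0.70), were lower in AKR/J, and Epb42 was higher, at 1.48 (SE 0.44, adjusted p = 0.0467). Epb42 met the filter through AKR/J alone in both comparisons that called it, and Tspo2 through Cav1-null alone. Only Alas2 kept its call without Cav1-null replicate 2 or replicate 3, and Epb42 lost it without any 1 of the AKR/J libraries.

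On d17 no member passed between AKR/J and C57BL/6J (0 of 5, against 0.742% of genes) or between Cav1-null and C57BL/6J (0 of 5, against 0.0491%). At an unadjusted p under 0.05 these counts were 2 and 0, against 21.2% and 7.55% of all genes, and with DESeq2 they were 2 and 0. Sptb passed in either comparison without C57BL/6J replicate 2, which made each count 1. Between AKR/J and Cav1-null 2 of 4 passed, against 12.4%: Alas2 was higher in AKR/J, at 1.98 (SE 0.47, adjusted p = 0.0163), and Sptb was lower, at -0.50 (SE 0.09, adjusted p = 0.00282). The call of Alas2 was lost without AKR/J replicate 3, Cav1-null replicate 2 or Cav1-null replicate 3, which left 1 member, and Slc4a1 was added without AKR/J replicate 2, which made 3.

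The third question was whether the change over a phase itself differed between strains, tested by the interaction of strain and day over 12 libraries. In the early phase AKR/J and C57BL/6J differed in 1 of 7 members, Sptb, at -3.26 (SE 0.50, adjusted p = 0.0471), against 0.0711% of 21090 genes tested. Alas2 stood at -3.56 (SE 0.60, adjusted p = 0.0780). Without C57BL/6J d12 replicate 3, 6 of 7 members passed, without AKR/J d12 replicate 2, 4 passed, and without any 1 of the other 10 libraries none passed. The shares of all genes called in these fits are not given here, so whether members gained calls more than other genes cannot be told. Cav1-null and C57BL/6J differed in 0 of 7 (background 0.00472%) and in none with DESeq2. An unadjusted p under 0.05 was found for 1 of the 7, against 15.0% of all genes.

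Between AKR/J and Cav1-null, a contrast added after the values were seen, the early change differed in 5 of 7 members, each lower in AKR/J, against 6.79% of genes that were lower. Alas2 differed by -4.81 (SE 0.53, adjusted p = 0.000890), Klf1 by -3.75 (SE 0.61), Slc4a1 by -3.01 (SE 0.44), Sptb by -2.45 (SE 0.45) and Epb42 by -1.66 (SE 0.51, adjusted p = 0.0471). The count was 4 or 5 without any 1 library, and Epb42 was the member lost. In the early fits within a strain, Klf1 met the filter on low counts through d12 alone in both strains, and Epb42 in Cav1-null. Alas2, Slc4a1 and Sptb met it on both days in both strains. How far the filter set the direction of Klf1 and Epb42 here was not tested.

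In the late phase the change differed from that of C57BL/6J in 0 of 6 members for AKR/J (background 0.00468%) and in 0 of 6 for Cav1-null (0.252%). At an unadjusted p under 0.05 these counts were 1 and 2, against 7.57% and 21.9% of all genes, and with DESeq2 0 and 2. For Cav1-null, 2 members passed without C57BL/6J d17 replicate 1, Alas2 and Sptb. In the late contrast of AKR/J and Cav1-null, also added after the values were seen, Alas2 alone of 6 differed, at 3.51 (SE 0.64, adjusted p = 0.0239), against 2.13%. This call was lost without AKR/J d17 replicate 3, without any 1 of the Cav1-null d15 libraries and without Cav1-null d17 replicate 2 or 3, under the replicate block and in the model of 27 libraries, and without AKR/J d15 replicate 1 Tspo2 joined it.

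Other genes of the same pathways were counted from lists chosen by function. Of 16 further red cell membrane genes 14 were tested in the early phase in AKR/J, where 9 fell and 2 rose. Of these 9, 6 met the filter on both days, and 3, Rhag among them, through d12 alone. Rhag, the Rh-associated glycoprotein, fell by 6.40 (SE 0.54) and the blood group gene Kel fell by 5.75 (SE 0.40), while the skeleton genes Add2 and Dmtn, at 0.89 (SE 0.26) and 0.87 (SE 0.21), rose. In Cav1-null 6 of 13 fell and 3 rose. In C57BL/6J 3 rose and 1 fell of 13. Of all genes tested 14% fell and 14.8% rose in AKR/J, 11.8% and 11.6% in Cav1-null and 7.8% and 7.08% in C57BL/6J, and these shares are the background of the early-phase list counts below as well. The median was -2.58 in AKR/J, -0.38 in Cav1-null and -0.34 in C57BL/6J.

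Of 17 further genes of heme and iron, all tested, 10 fell and none rose in the early phase in AKR/J, with a median of -0.997. Blvrb, biliverdin reductase B, fell by 3.47 (SE 0.45), Tspo fell by 2.93 (SE 0.51), and Tfrc, the transferrin receptor, fell least, by 0.83 (SE 0.15). In C57BL/6J 4 fell and in Cav1-null 3, the largest fall being that of Hmox1, heme oxygenase 1, by 1.77 (SE 0.32). Alas1, the housekeeping form of Alas2, was the 1 gene of the list that was lower in AKR/J than in C57BL/6J on d12, at -0.73 (SE 0.23), where 8 were higher, against 14.5% of all genes higher and 14.1% lower in that comparison. The 8 were led by Blvrb at 3.47 (SE 0.48).

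Of 13 further erythroid regulators 3 fell and 2 rose in the early phase in AKR/J. Gfi1b fell by 4.93 (SE 0.61), having met the filter through d12 alone, and Nfe2 by 4.73 (SE 0.45), while Bcl11a, also a neuronal gene, and Cbfa2t3 rose by 0.86 and 1.12 on the log2 scale. In Cav1-null 3 of 12 fell, against 11.8% of all genes, namely Gata2, Tal1 and Zfpm1, by 1.34, 1.06 and 0.94, and in C57BL/6J none of 12 passed. Of 15 late erythroid genes 10 of 14 tested fell in AKR/J and none rose, led by Trim10 at -5.41 (SE 0.43) and Hemgn at -5.36 (SE 0.66). Of these 10, 3 met the filter through d12 alone, Hemgn among them. In Cav1-null 4 fell and 2 rose of 12 and in C57BL/6J 1 fell and 1 rose of 11. The lists of leukocytes, microglia and endothelium held 31.2 to 59.8, 28.7 to 81.7 and 65.7 to 305 summed CPM over all libraries. In AKR/J d12 they held 31.2 to 54.5, 36.6 to 58.1 and 72.4 to 109. The most abundant leukocyte gene was Coro1a, at 22.2 to 26.1 CPM in AKR/J d12 and 29.6 to 56.1 elsewhere. Other genes of that list moved with the erythroid genes: from d12 to d15 in AKR/J 4 of 6 tested fell, among them Cd52, at -3.14 (SE 0.70), and the neutrophil gene S100a8, at -2.93 (SE 0.88). Of these 4 only Cd52 met the filter on both days. On d12 Cd52 was higher in AKR/J by 3.72 (SE 0.76) than in C57BL/6J and by 3.33 (SE 0.72) than in Cav1-null. Of 8 endothelial genes 2 rose in AKR/J from d12 to d15, and on d12 4 were lower than in C57BL/6J, against 14.1% of all genes.

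Over the 27 libraries, which share strain, day and blood content, Slc4a1, Epb42, Klf1 and Gata1 varied alike, with Pearson's r of 0.90 to 0.98 between their log2(CPM + 1). Alas2 followed them with r of 0.53 to 0.67. Sptb stood at -0.21 to 0.26 and Tspo2 at -0.25 to 0.06 with every other member. Among the 23307 genes kept over all libraries, that most like Slc4a1 was Grap2 (r = 0.98), which was also first for Epb42 (0.99). The gene most like Klf1 was Nfe2 (0.97), like Gata1 4930544L04Rik (0.98) and like Alas2 the adult globin gene Hba-a1 (0.92). Sptb was most like Slc2a3 (0.91), the neuronal glucose transporter, and Tspo2 most like Gm47006 (0.80). For the mean of the 7 the 10 most like genes were Car2, Gm49553, Trim10, Gm20161, Hbq1b, Slfn14, Treml4, 4930544L04Rik, Creg1 and Rhag, with r from 0.94 to 0.96.

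**Figure D5:**
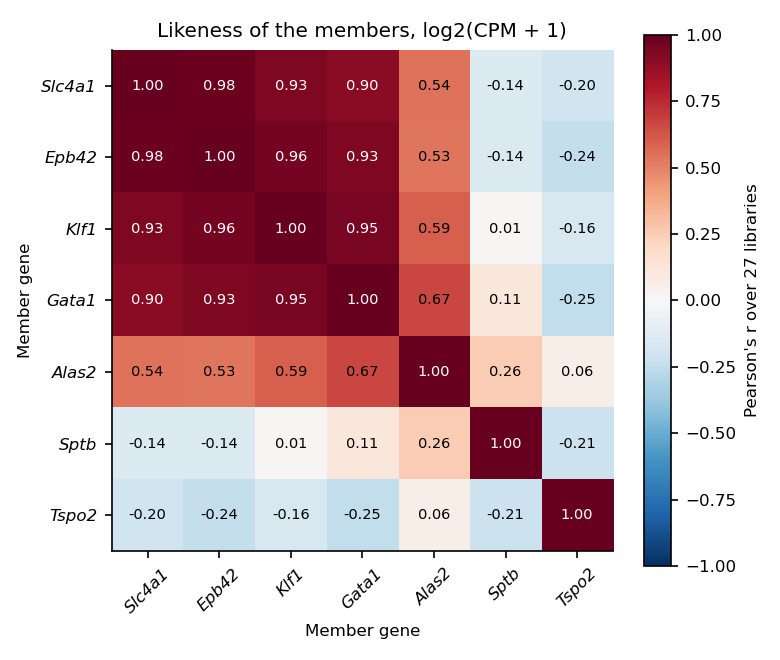
Pearson's r between the members' log2(CPM + 1) over the 27 libraries, with the value in each square. Slc4a1, Epb42, Klf1 and Gata1 formed a block at 0.90 to 0.98, and Sptb and Tspo2 lay at or below 0.26 with all other members.

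The splice table, which keeps junctions after filters, listed 11 junctions inside 5 of the members, all annotated in GENCODE. Alas2 had 2 of its 27 annotated junctions and 9246 reads, Slc4a1 2 of 26 and 1112 reads, Epb42 3 of 16 and 321 reads, Sptb 1 of 39 and 449 reads, and Tspo2 3 of 18 and 254 reads. Klf1 and Gata1 had none listed. The authors' filters can leave a 0 where reads existed, and the Slc4a1 junction at chr11:102252290-102255882 is listed at 0 in AKR/J d12 replicate 1, which held 3326 reads of the gene. The Alas2 junction at chrX:149340405-149340934 held 538, 297 and 758 reads in AKR/J d12, 30, 67 and 39 in d15 and 319, 97 and 640 in d17, which within each day is the order of the gene's own counts. The Slc4a1 junction at chr11:102251047-102251966 held 486 reads over AKR/J d12, 102 over C57BL/6J d12 and 68 over Cav1-null d12, against 8 to 26 over each later group. Of the Sptb junction at chr12:76655472-76655814, C57BL/6J held 22 reads on d12, 119 on d15 and 89 on d17, and Cav1-null 7, 19 and 56. AKR/J held 50, 45 and 42 reads of it, or 0.673, 0.470 and 0.475 CPM. The mean of the gene in AKR/J was 36.0, 14.9 and 25.5 CPM on these days. The late rise of the gene in AKR/J was thus not seen at this junction, and the difference was not tested. The Tspo2 junction at chr17:48755829-48756047 held 21, 22 and 17 reads in the Cav1-null groups and 0 to 11 in the others. That at chr17:48756190-48756910 held 17, 20 and 14 against 4 to 13. At chr17:48757099-48757899 the Cav1-null groups held 10, 28 and 3, and the others overlapped them at 2 to 17, with 17 in AKR/J d17. One more interval listed under Alas2, chrX:149305207-149367460, spans the whole gene, is not annotated, and held 2 to 15 reads in every library.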

How the data were processed

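RNA of whole fetal brain was measured in 27 libraries, placed in 9 groups by the labelled strain and day. The authors removed adaptors with cutadapt, trimmed with fastp and mapped to GRCm39 with STAR. The deposited values are whole read counts per Ensembl gene and read counts per splice junction and transcript, the latter after the authors dropped junctions with multi-mapped reads, short overhangs or few reads. Counting tool, strand setting and versions are not given in the sources used here.

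Each comparison was fitted on its own libraries (6 between days or strains, 12 for interactions) in R 4.3.3 with edgeR 4.0.16: filterByExpr, TMM scaling and the quasi-likelihood test, with Benjamini-Hochberg adjustment over all genes tested and a threshold of 0.05. CPM used TMM-scaled library sizes. SEs were derived from the log2 fold change and the F statistic. The fits were tested on simulated data. Likeness is Pearson's r of log2(CPM + 1). Totals of 26363697 to 39759702 reads set the precision of low genes such as Tspo2, Klf1 and Gata1. Coordinates of genes are from GENCODE on GRCm39, those of promoters from RefSeq on GRCm38.p6.

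The members and the lists (red cell membrane, heme and iron, erythroid regulators, late erythroid genes, globins, megakaryocytes and platelets, leukocytes, microglia, endothelium, hepatocytes, placenta and decidua, yolk sac endoderm and brain) were chosen with earlier results of these data known. All members were named, and of a list those called with the largest or smallest log2 fold changes. Alternatives were RLE factors, unscaled library sizes, sizes without globins and members, no filter on low counts, DESeq2 1.42.0, 1 model of 27 libraries, a replicate block and leaving out each library. Same-numbered libraries deviated together (r over 0.1 in all 3 numbers) in none of the comparisons, so replicate numbers were not taken as pairs. Single-gene values of some genes on these lists are not reported here.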

Additional observations from a re-analysis of the deposited data

Results flagged for a closer look

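The tested difference between strains in the change from one day to the next passed the threshold for these members (edgeR's quasi-likelihood test of the interaction, adjusted over all genes tested). Between AKR/J and C57BL/6J in the early phase it was -3.26 for Sptb, which fell in AKR/J and rose in C57BL/6J, and the call was lost without any 1 of 10 of the 12 libraries. Between AKR/J and Cav1-null in the early phase, in a contrast chosen after the values were seen, it was -4.81 for Alas2, -3.75 for Klf1, -3.01 for Slc4a1, -2.45 for Sptb and -1.66 for Epb42. In the early fits within a strain, Klf1 met the filter on low counts through d12 alone in both strains, and Epb42 in Cav1-null. Alas2 and Sptb moved in opposite directions in these strains, while Slc4a1 and Epb42 fell in both and fell further in AKR/J. In the late phase, in a contrast also chosen after the values were seen, the difference was 3.51 for Alas2, which rose in AKR/J and stood at -0.73 in Cav1-null. This call was lost without any 1 of 6 of the 12 libraries, under the replicate block and in the model of 27 libraries. The early call of Epb42 was lost without any 1 of 9 of the 12 libraries. All early values rest on the AKR/J d12 libraries with 3.53% to 13.6% globin reads and with placental and yolk sac genes, whose part was not tested.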

How the results depend on the processing

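Each count of members called was recomputed under the alternatives, and the cause of a change was not tested. RLE factors and library sizes without globins and members moved none of the counts. Unscaled library sizes gave 5 in AKR/J d12 to d15 and in AKR/J against C57BL/6J d12, 3 in C57BL/6J d12 to d15 (Slc4a1 added) and in Cav1-null against C57BL/6J d15, 4 in the AKR/J minus Cav1-null early and 2 in the AKR/J minus C57BL/6J early interaction, and 2 in all planned interactions. Without the filter the counts were 3 in C57BL/6J d12 to d15 (Slc4a1 added), in Cav1-null d15 to d17, in Cav1-null against C57BL/6J d15 and in AKR/J against Cav1-null d17, 2 in AKR/J against Cav1-null d15 (Epb42 lost), 1 in Cav1-null against C57BL/6J d12, 2 in AKR/J against C57BL/6J d17, 4 in the AKR/J minus C57BL/6J early, 2 in the Cav1-null minus C57BL/6J late and 2 in the AKR/J minus Cav1-null late interaction, and 6 in all planned interactions. DESeq2 gave 4 in C57BL/6J d12 to d15, 2 in AKR/J against Cav1-null d15, 1 and 2 in those strain comparisons of d12 and d17, 4 and 2 in the early and late interactions with C57BL/6J, and 6 in all planned ones. The model of 27 libraries gave 1 in AKR/J d15 to d17, 4 in C57BL/6J d12 to d15, 3 in Cav1-null d12 to d15 (Alas2 lost), 0 in C57BL/6J d15 to d17, 1 in AKR/J against C57BL/6J d15, 1 in AKR/J against Cav1-null on d15 and on d17, 4 in both early interactions of AKR/J and in all planned ones, and 0 in the AKR/J minus Cav1-null late one. The replicate block gave 0 in C57BL/6J d12 to d15, 3 in Cav1-null d15 to d17, in Cav1-null against C57BL/6J d15 and in AKR/J against Cav1-null d17, 2 in AKR/J against Cav1-null d15, 1 in AKR/J against C57BL/6J d17, 4 in the AKR/J minus Cav1-null early and 0 in the AKR/J minus Cav1-null late interaction, and under this block Slc4a1 changed sign between Cav1-null and C57BL/6J on d12, to 0.21. Same-numbered libraries deviated together in none of the comparisons.

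Leaving out 1 library gave ranges of 5 to 6 in AKR/J d12 to d15, 1 to 2 in AKR/J d15 to d17, 0 to 3 in C57BL/6J d12 to d15, 0 to 1 in C57BL/6J d15 to d17 and 1 to 2 in Cav1-null d15 to d17. Between strains they were 0 to 6 (AKR/J against C57BL/6J), 0 to 1 (Cav1-null against C57BL/6J) and 6 to 7 (AKR/J against Cav1-null) on d12. On d15 they were 2 to 3 in Cav1-null against C57BL/6J and 1 to 3 in AKR/J against Cav1-null. On d17 they were 0 to 1, 0 to 1 and 1 to 3 in the order of d12. In interactions they were 0 to 6 (AKR/J minus C57BL/6J early), 4 to 5 (AKR/J minus Cav1-null early), 0 to 2 (Cav1-null minus C57BL/6J late) and 0 to 2 (AKR/J minus Cav1-null late). Slc4a1 between Cav1-null and C57BL/6J on d12 ran from -0.87 to 1.02, the latter without C57BL/6J d12 replicate 3. Of 127 pairs of member and comparison 62 never passed the threshold, and 28 of these changed sign somewhere.

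Unscaled library sizes shifted the median of all genes by 0.44 in AKR/J d12 to d15, -0.40 in both AKR/J comparisons of d12, 0.14 in C57BL/6J d15 to d17, 0.16 and 0.18 in AKR/J and Cav1-null against C57BL/6J d15, and 0.55 (AKR/J minus C57BL/6J) and 0.44 (AKR/J minus Cav1-null) in the early interactions. In these the share of calls that were higher went from 51.4% to 74.7%, 50.6% to 30.2% and 49.3% to 28.6%, 57.2% to 68.4%, 45.7% to 62.8% and 59.2%, 6.67% to 83.2% and 53.7% to 77.2% in that order. In the late interactions with C57BL/6J the shift was -0.21 for AKR/J and -0.10 for Cav1-null. Of 126 member levels 4 moved by over 1 SD under another scaling. Counted by transcript, the 12 listed junctions were 21 rows. Depth limits Klf1, Gata1, Epb42 and Tspo2 from d15 on, where most libraries held under 40 reads of each.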
